A study of Mus musculus with 18 samples.

Results

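The genes described here were 10 members of mouse innate sensing: the Toll-like receptor genes Tlr1, Tlr2, Tlr3, Tlr4, Tlr6, Tlr7, Tlr8, Tlr9 and Tlr13, with the co-receptor gene Cd14. They were taken from the 53465 genes of the count table by symbol. Each was matched once, and each passed edgeR's filter on low counts in every comparison.

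Toll-like receptors are membrane proteins that recognize microbial molecules, and some molecules released from damaged tissue, through repeats rich in leucine. Those at the cell surface bind lipids and lipoproteins, whereas those in endosomes bind nucleic acids, and most of them signal through the adaptor MyD88 to NF-kB. In the central nervous system, microglia and infiltrating macrophages are major cell types that carry them.

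Adult female C57BL/6J mice received a contusion spinal cord injury (SCI), and PBS, recombinant IL-13 (rIL-13) or recombinant IL-4 (rIL-4) was injected into the cord 48 h later. After another 24 h, microglia (CD45 low, CD11b+, F4/80+) and macrophages (CD45 high, CD11b+, F4/80+) were sorted from the same cords of 9 mice, 3 per treatment, which gave 18 RNA-seq libraries in 6 groups. PBS mice were numbered 1, 2 and 3, rIL-13 mice 5, 6 and 7, and rIL-4 mice 8, 9 and 10, and the values of a group are given in that order. All groups had an injured and injected cord, so uninjured cells were not analysed here. The question was how each cytokine changed the transcripts of these cells and whether microglia and macrophages differed.

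Upstream sequences are shown for the receptor genes on which the results turn, Tlr2 and Tlr13, which were lower with both cytokines in macrophages, and Tlr8, which was higher there. They lie before the RefSeq start site in GRCm38.p6, within the 250 bases upstream of it, and bases that GENCODE annotates as exon are left out. Capitals mark the motif matches described after the sequences.
Tlr2 (chr3:83841768-83841858, minus strand): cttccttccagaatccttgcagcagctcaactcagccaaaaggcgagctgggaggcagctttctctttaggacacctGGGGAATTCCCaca
Tlr13 (chrX:106143025-106143203, plus strand): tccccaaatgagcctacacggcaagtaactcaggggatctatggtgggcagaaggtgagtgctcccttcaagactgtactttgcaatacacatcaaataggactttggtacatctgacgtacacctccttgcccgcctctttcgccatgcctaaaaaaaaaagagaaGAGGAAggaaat
Tlr8 (chrX:167264330-167264579, minus strand): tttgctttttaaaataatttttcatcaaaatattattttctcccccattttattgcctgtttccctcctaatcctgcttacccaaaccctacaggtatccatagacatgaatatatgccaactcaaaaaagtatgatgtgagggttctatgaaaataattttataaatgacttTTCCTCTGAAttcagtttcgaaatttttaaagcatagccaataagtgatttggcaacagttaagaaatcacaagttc
The motifs were searched on both strands in the 250 bases before each start site. They were the NF-kB consensus, TTCNNNNGAA (a spacing that STAT6 can bind), GAGGAA (a core of PU.1 sites) and GAAANNGAAA (found in interferon response elements). The Tlr2 capitals are a pair of overlapping NF-kB matches that begin at bases -173 and -172, counted back from the start site. In Tlr13, the capitals are GAGGAA at base -83. In Tlr8, they are TTCNNNNGAA at base -77, and a GAGGAA match on the opposite strand begins at the same base and overlaps it. Among 32851 RefSeq windows of this length, 3.9% held the NF-kB consensus, 5.85% TTCNNNNGAA, 23.3% GAGGAA and 2.98% GAAANNGAAA. Tlr3 also held an NF-kB match, Tlr1 and Tlr9 a GAGGAA match, and Tlr6 a pair of overlapping GAAANNGAAA matches. No window of Tlr4, Tlr7 or Cd14 was searched. These matches describe letters and not binding.

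The members lie on 7 chromosomes of GRCm38 in the GENCODE annotation. Tlr2 (ENSMUSG00000027995.10) is on chromosome 3 from 83836272 to 83841767 and Tlr4 (ENSMUSG00000039005.13) on chromosome 4 from 66827584 to 66930284. Tlr1 (ENSMUSG00000044827.10, from 64924679 to 64933563) and Tlr6 (ENSMUSG00000051498.6, from 64952031 to 64960097) are neighbours on chromosome 5. Tlr8 (ENSMUSG00000040522.5, from 167242696 to 167264329) and Tlr7 (ENSMUSG00000044583.13, from 167304929 to 167330558) are neighbours on chromosome X. Tlr13 (ENSMUSG00000033777.3) is elsewhere on that chromosome, from 106143204 to 106160493. Tlr3 (ENSMUSG00000031639.12) is on chromosome 8 from 45395665 to 45411080, Tlr9 (ENSMUSG00000045322.10) on chromosome 9 from 106222598 to 106226883 and Cd14 (ENSMUSG00000051439.6) on chromosome 18 from 36725067 to 36726798. Tlr1 and Tlr6 transcripts share 336 stretches of 76 bases, the read length, which are 10.2% of such stretches in Tlr1 and 9.14% in Tlr6. With those that 9530046B11Rik and Fam81a also hold, 10.5% of the stretches in Tlr1 occur in another gene. Reads from shared stretches could be divided between the genes, and their counts are uncertain to that extent. An exon of Tlr3 overlaps the antisense gene Gm45542, which shares 4.24% of its stretches, and the libraries did not mark strand. The other 7 members shared no stretch with another gene.

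The libraries held between 35961305 and 45849829 counts. The summed level of 7 microglia markers was between 2120 and 8153 CPM, counts scaled to the library total, in microglia and between 422 and 3272 in macrophages, and was lower in every rIL-4 library than in every PBS library of the same cell type. With each treatment, every microglia library was above every macrophage library. All 7 were detected in every group. A sum of 7 monocyte-derived macrophage markers was between 36.2 and 241 CPM in microglia and between 549 and 1980.0 in macrophages. Every microglia library also carried fibroblast and pericyte markers, between 185 and 7017 CPM over 6 genes against at most 9.02 in macrophages. In microglia, the sum was 2049 to 2975 CPM with PBS, 1121 to 7017 with rIL-13 and 185 to 1414 with rIL-4, so PBS and rIL-4 did not overlap. The highest sum was in rIL-13 microglia of mouse 6. Endothelial markers summed to 637 to 1469 CPM in PBS microglia, 1249 to 2197 with rIL-13 and 1572 to 2026 with rIL-4. In macrophages, they summed to 38.1 to 49.9 CPM with PBS, 109 to 184 with rIL-13 and 157 to 330.3 with rIL-4. Pecam1 was the highest gene there with both cytokines, at a mean of 222 CPM with rIL-4 against 8.49 with PBS. The macrophage means of Kdr, Cldn5 and Esam were lower with rIL-4 than with PBS, and Cdh5 was at trace levels. Of 5 T cell markers, Cd3e, Cd3d and Cd3g had no count in rIL-13 and rIL-4 microglia. Lck had a mean of 1.11 CPM in rIL-13 microglia, and the sum of the 5 was at most 1.76 CPM in microglia. In macrophages, with Cd2 the highest gene, the sum was 0.763 to 1.37 CPM with PBS. It was 4.45 to 5.29 CPM there with rIL-13 and 3.18 to 8.21 CPM with rIL-4. Neutrophil markers summed to 415 to 558 CPM in PBS macrophages, 132 to 671 after rIL-13 and 64.9 to 246 after rIL-4. Mitochondrially encoded genes made up 6.36% to 12.2% of counts in rIL-4 microglia and at most 3.53% in the other microglia. The part of these differences in the results was not tested.

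**Figure D1:**
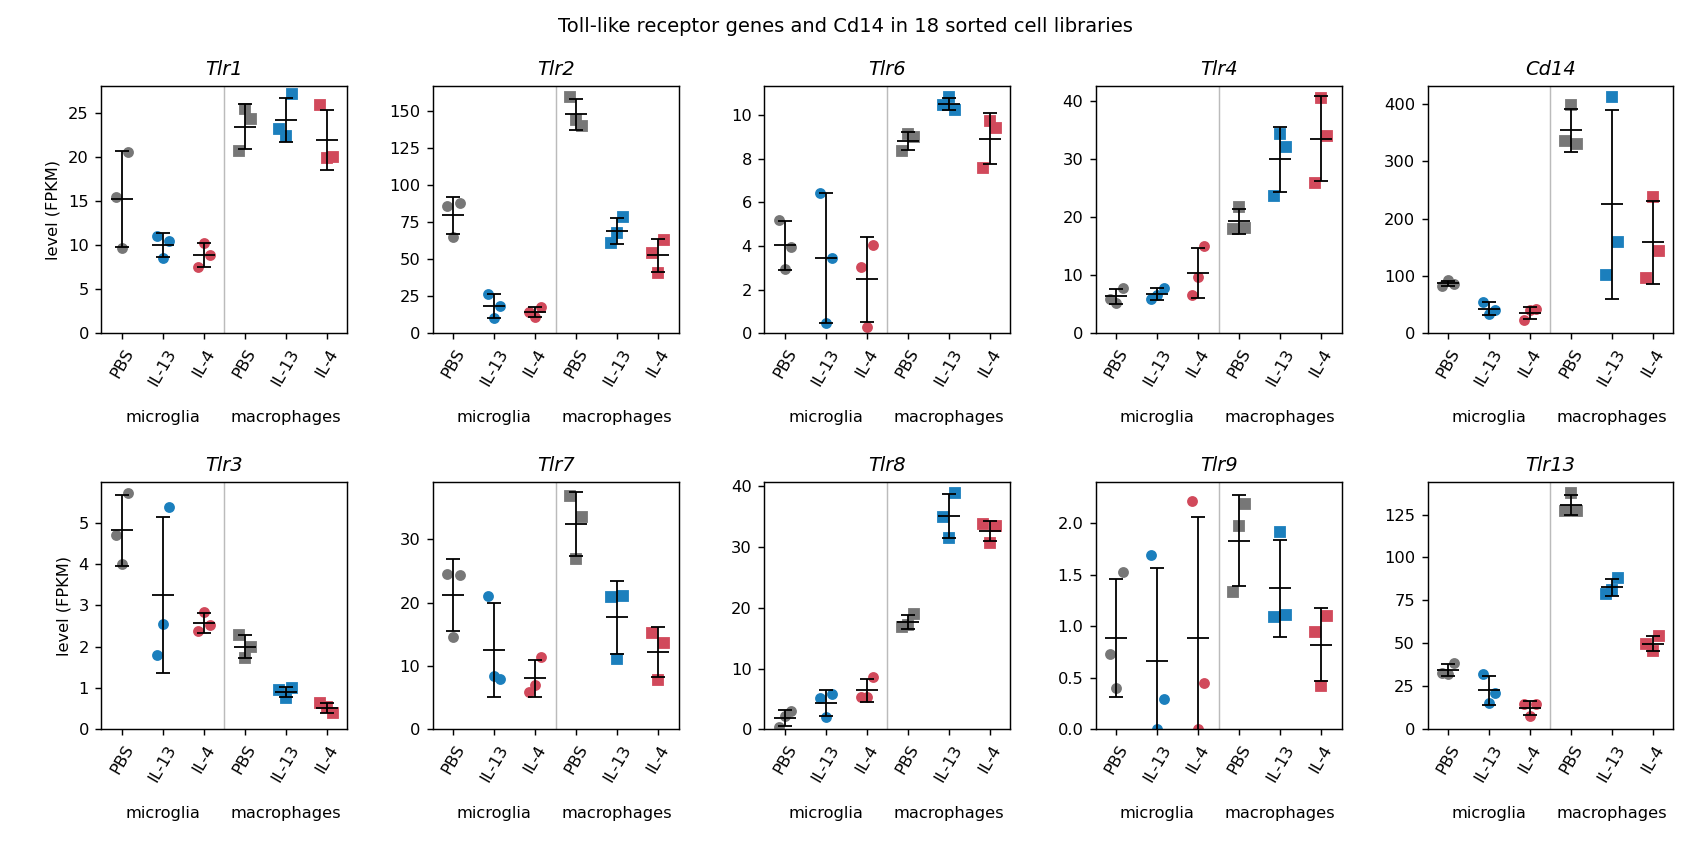
Level of each gene in FPKM (counts per kilobase of annotated exon, scaled by the TMM-adjusted library total) in the 18 libraries. Points are mice, circles microglia and squares macrophages, and lines show the mean and SD of 3 mice. Tlr2 is lower with rIL-13 and rIL-4 in both cell types, Tlr8 is higher with both in macrophages, and most members are higher in macrophages.

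Levels are given as FPKM, so that genes of different length can be compared. With PBS, Cd14 had the highest mean level in both cell types, at 354 ± 37.6 FPKM in macrophages (SD, n = 3) and 86.9 ± 4.80 FPKM in microglia. Tlr2 was next, at 148 ± 10.3 FPKM in macrophages and 79.6 ± 12.6 FPKM in microglia, where its range overlapped that of Cd14. Tlr13 ranked after Tlr2 and was followed by Tlr7 and Tlr1. In PBS macrophages, the ranges of Cd14, Tlr2, Tlr13 and Tlr7 did not overlap their neighbours in the order. Tlr1 and Tlr4 overlapped there, and so did Tlr4 and Tlr8. In PBS microglia, Tlr4, Tlr3, Tlr6, Tlr8 and Tlr9 followed in this order, each overlapping the next.

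The order differed with the cytokines. In rIL-4 macrophages, Tlr4 (mean 33.4 ± 7.32 FPKM) and Tlr8 (mean 32.7 ± 1.65 FPKM) came before Tlr1 and Tlr7, and Tlr2 and Tlr13 overlapped. In rIL-4 microglia, Tlr2, Tlr13, Tlr4, Tlr1, Tlr7 and Tlr8 lay between 6.43 and 14.1 FPKM on average, and each overlapped the next. Tlr3 and Tlr9 were the lowest members in all 3 macrophage groups, and Tlr9 was the lowest in all 3 microglia groups.

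Of the 10 members, 6 were differentially expressed (DE) between rIL-4 and PBS macrophages by edgeR's quasi-likelihood test at an adjusted p under 0.05, against 14% of all genes tested. Tlr2, Tlr3, Tlr7 and Tlr13 were lower, where 7.2% of all genes were lower, and Tlr4 and Tlr8 were higher, where 6.77% were. DESeq2's Wald test called 7 there, against 15.5% of all genes, and added Tlr9. With rIL-13, 4 members were DE in macrophages, against 4.19% of all genes. These were Tlr2, Tlr3 and Tlr13, which were lower (1.66% of all genes), and Tlr8, which was higher (2.53% of all genes). In bulk libraries, fewer cells of a type and less RNA per cell cannot be told apart. The median log2 fold change of the members was -1.16 with rIL-4 and -0.53 with rIL-13, beside 0.0191 and 0.00497 over all genes tested. With all 18 libraries in a single edgeR model, 4 members remained called with rIL-4, since the adjusted p of Tlr8 was 0.376 and that of Tlr4 0.0830. No member passed with rIL-13 in that model, where the smallest adjusted p was 0.0514, for Tlr2.

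In microglia, 2 members were DE with rIL-4, against 2.22% of all genes. Tlr2 and Cd14 were both lower, where 0.887% of all genes were lower. With rIL-13, the count was 1, Tlr2, against 0.366% of all genes and 0.0835% that were lower. DESeq2's Wald test on the same libraries called 4 members with rIL-4, where it called 9.21% of all genes, and added Tlr7 and Tlr13. It called 2 with rIL-13, where it called 2.54% of all genes, and added Cd14. The median log2 fold change of the members was -0.82 with rIL-4 and -0.58 with rIL-13, beside -0.059 and -0.000817 over all genes. Both comparisons with PBS used the same PBS libraries.

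**Figure D2:**
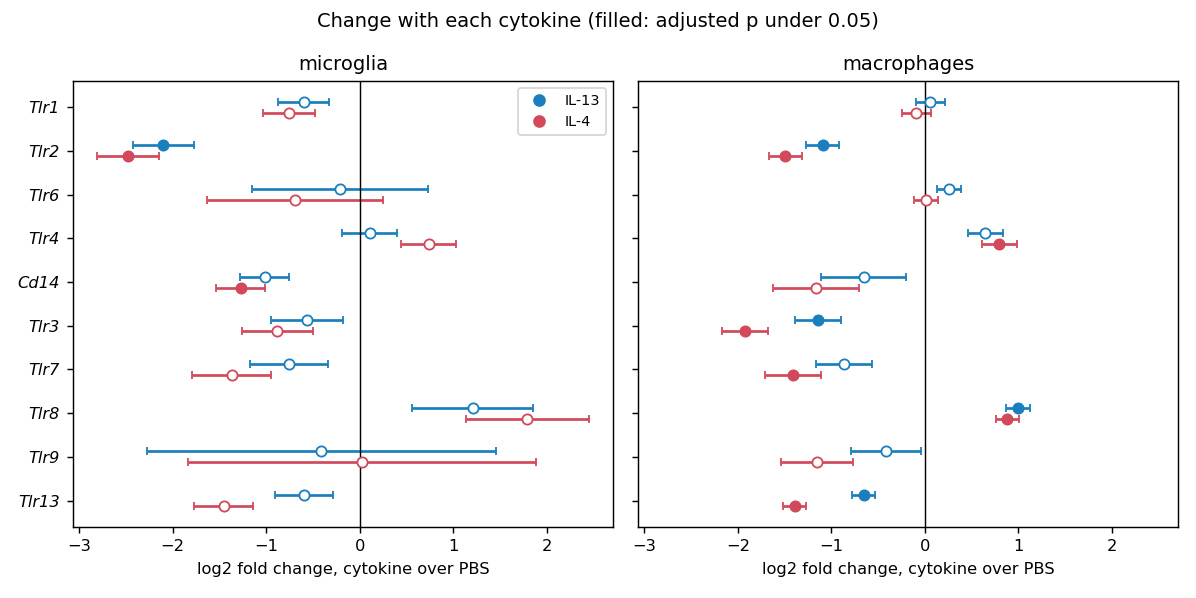
Log2 fold change of each gene with rIL-13 and rIL-4 against PBS, in microglia and macrophages. Error bars show the SE, and filled symbols have an adjusted p under 0.05 in edgeR's test. Tlr2 is lower in all 4 comparisons, from -2.48 to -1.09, and Tlr8 is on the right of 0 in all 4, with an adjusted p under 0.05 in macrophages and not in microglia.

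Tlr2 pairs with TLR1 or TLR6 to bind bacterial lipoproteins. Its level in microglia was 85.6, 65.0 and 88.1 FPKM with PBS, 26.2, 10.4 and 18.7 FPKM with rIL-13 and 14.0, 10.8 and 17.4 FPKM with rIL-4. Every cytokine library was below every PBS library. Tlr2 fell 5.57-fold with rIL-4, a log2 fold change of -2.48 (SE 0.33, adjusted p = 0.00735), and was called with each mouse left out in turn, with adjusted p of up to 0.0404. With rIL-13, it fell 4.29-fold, a log2 value of -2.10 (SE 0.33, adjusted p = 0.0331). That call was lost without PBS mouse 1, 2 or 3 and without rIL-13 mouse 7, with adjusted p of up to 0.167.

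The level of Tlr2 in macrophages was 159, 144 and 140.0 FPKM with PBS, 60.8, 67.4 and 78.5 FPKM with rIL-13 and 53.9, 40.6 and 62.9 FPKM with rIL-4. The PBS libraries were again above all others, while rIL-13 and rIL-4 overlapped. The log2 fold change was -1.49 (SE 0.18, adjusted p = 0.000543) with rIL-4 and -1.09 (SE 0.17, adjusted p = 0.00763) with rIL-13, and both held with each mouse left out. The summed neutrophil markers were also lower with rIL-4 in macrophages, at 64.9 to 246 CPM against 415 to 558 with PBS. Their part in the lower Tlr2 level was not tested.

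Tlr1, the partner for triacylated lipoproteins, had 15.4, 9.70 and 20.6 FPKM in PBS microglia, 11.1, 8.54 and 10.4 FPKM with rIL-13 and 7.51, 10.3 and 8.94 FPKM with rIL-4. In macrophages, it had 20.7, 25.5 and 24.3 FPKM with PBS, 23.2, 22.5 and 27.1 FPKM with rIL-13 and 25.9, 20.0 and 20.0 FPKM with rIL-4. All of its cytokine groups overlapped PBS. The log2 fold change was -0.75 (SE 0.28, adjusted p = 0.217) with rIL-4 and -0.60 (SE 0.28, adjusted p = 0.673) with rIL-13 in microglia. In macrophages, the values were -0.09 (SE 0.16, adjusted p = 0.754) and 0.06 (SE 0.16, adjusted p = 0.906), so that Tlr1 did not pass the test in any cytokine comparison.

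Tlr6, the partner for diacylated lipoproteins, had 5.20, 2.95 and 3.94 FPKM in PBS microglia, 6.44, 0.478 and 3.44 FPKM with rIL-13 and 3.05, 0.303 and 4.05 FPKM with rIL-4. The rIL-13 library of mouse 6 and the rIL-4 library of mouse 9 stood far below the others, with 85 and 59 counts. Macrophage levels were 8.35, 9.13 and 8.99 FPKM with PBS, 10.5, 10.8 and 10.3 FPKM with rIL-13 and 7.59, 9.75 and 9.41 FPKM with rIL-4. No cytokine comparison passed the test, with log2 fold changes of -0.69 (SE 0.94, adjusted p = 0.834) and -0.21 (SE 0.94, adjusted p = 1.00) for rIL-4 and rIL-13 in microglia. In macrophages they were 0.01 (SE 0.13, adjusted p = 0.959) and 0.26 (SE 0.13, adjusted p = 0.330). The SE in microglia was about as large as a doubling, so a change of that size was not detectable there.

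Tlr4 encodes the receptor for lipopolysaccharide. In macrophages, it had 17.99, 21.6 and 18.02 FPKM with PBS, 23.6, 34.2 and 32.02 FPKM with rIL-13 and 25.9, 40.5 and 34.0 FPKM with rIL-4. All cytokine libraries were above the PBS libraries. The rise with rIL-4 was 1.74-fold, a log2 fold change of 0.80 (SE 0.19, adjusted p = 0.0192). The call was lost without PBS mouse 1 or 3 and without rIL-4 mouse 9 or 10, with adjusted p of up to 0.0910 without PBS mouse 3. With rIL-13, the log2 fold change was 0.65 (SE 0.19, adjusted p = 0.0942). In microglia, Tlr4 had 5.95, 5.28 and 7.75 FPKM with PBS, 5.92, 6.59 and 7.85 FPKM with rIL-13 and 6.57, 9.65 and 15.0 FPKM with rIL-4, and the groups overlapped. Neither comparison passed there, at 0.74 (SE 0.29, adjusted p = 0.252) with rIL-4 and 0.11 (SE 0.29, adjusted p = 1.00) with rIL-13.

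Cd14 encodes the protein that hands lipopolysaccharide to TLR4. In microglia, its level was 82.7, 92.1 and 86.0 FPKM with PBS, 55.3, 32.8 and 40.1 FPKM with rIL-13 and 22.9, 40.2 and 43.0 FPKM with rIL-4. The PBS libraries lay above all others. With rIL-4, Cd14 fell 2.42-fold, a log2 fold change of -1.27 (SE 0.27, adjusted p = 0.0436). The call was lost in all 6 fits that left out a mouse, with adjusted p between 0.0709 and 0.146, the highest without PBS mouse 3, and in the 18-library model, with an adjusted p of 0.0757. With rIL-13, the value was -1.02 (SE 0.26, adjusted p = 0.276). In rIL-4 microglia, microglia markers summed to between 2120 and 3606 CPM against between 4444 and 8153 with PBS, and the part of this in the lower Cd14 and Tlr2 levels was not tested.

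In macrophages, Cd14 had 335, 398 and 331 FPKM with PBS, 102, 412 and 159.8 FPKM with rIL-13 and 96.0, 237 and 143 FPKM with rIL-4. The rIL-13 library of mouse 6 was above every PBS library, and the other cytokine libraries were below them. The log2 fold change was -1.16 (SE 0.46, adjusted p = 0.125) with rIL-4 and -0.65 (SE 0.45, adjusted p = 0.517) with rIL-13, so Cd14 did not pass the main test in macrophages. With rIL-4, edgeR without the filter on low counts gave an adjusted p of 0.0326, and DESeq2's Wald test one of 0.188. Without rIL-13 mouse 6, the adjusted p with rIL-13 was 0.0507. The neutrophil marker sum was also highest in that library, at 671 CPM.

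Tlr3 binds double-stranded RNA and, unlike the others, signals through Ticam1 (TRIF) alone. Its macrophage levels were low, at 2.28, 1.72 and 2.00 FPKM with PBS, 0.945, 0.765 and 0.993 FPKM with rIL-13 and 0.631, 0.551 and 0.394 FPKM with rIL-4. The 3 groups did not overlap, with rIL-4 lowest. Against PBS, Tlr3 fell 3.80-fold with rIL-4, at -1.92 (SE 0.25, adjusted p = 0.000905) on the log2 scale. With rIL-13, the value was -1.14 (SE 0.24, adjusted p = 0.0290), a call lost in all 6 fits that left out a mouse, with adjusted p from 0.0563 to 0.107, the highest without PBS mouse 1. The sum of microglia markers in macrophages was also lower, at 2303 to 3272 CPM with PBS, 974 to 2038 with rIL-13 and 422 to 742 with rIL-4. Tlr3 was higher in microglia, and the part of these markers in its lower macrophage level was not tested. In microglia, Tlr3 had 4.71, 4.01 and 5.73 FPKM with PBS, 1.81, 2.54 and 5.38 FPKM with rIL-13 and 2.37, 2.83 and 2.52 FPKM with rIL-4. All rIL-4 libraries were below PBS while rIL-13 overlapped it, and neither passed, at -0.88 (SE 0.38, adjusted p = 0.292) and -0.56 (SE 0.38, adjusted p = 0.926).

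Tlr7 binds single-stranded RNA in endosomes. Macrophage levels were 36.8, 26.9 and 33.6 FPKM with PBS, 20.9, 11.1 and 21.1 FPKM with rIL-13 and 15.3, 7.78 and 13.6 FPKM with rIL-4. PBS libraries were the highest, and the cytokine groups overlapped each other. Tlr7 fell 2.65-fold with rIL-4, at -1.41 (SE 0.30, adjusted p = 0.0123) on the log2 scale, and kept its call with each mouse left out. With rIL-13, the value was -0.87 (SE 0.30, adjusted p = 0.151). In microglia, it had 24.5, 14.6 and 24.5 FPKM with PBS, 21.1, 8.44 and 7.99 FPKM with rIL-13 and 5.87, 6.98 and 11.4 FPKM with rIL-4. The rIL-4 libraries were all below PBS, but the value of -1.37 (SE 0.42, adjusted p = 0.149) did not pass, while the 18-library model gave an adjusted p of 0.0472 and DESeq2 one of 0.0208. With rIL-13, the value was -0.75 (SE 0.42, adjusted p = 0.796).

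Tlr8, the neighbour of Tlr7 on chromosome X and a member of the same subfamily, moved the other way in macrophages. It had 16.9, 17.2 and 19.0 FPKM with PBS, 35, 31.5 and 38.9 FPKM with rIL-13 and 33.8, 30.8 and 33.4 FPKM with rIL-4. Each cytokine library was above each PBS library, and rIL-13 and rIL-4 overlapped. Tlr8 rose 1.99-fold with rIL-13, or 1.00 (SE 0.13, adjusted p = 0.00227) on the log2 scale, and 1.84-fold with rIL-4, at 0.88 (SE 0.13, adjusted p = 0.00154). Both calls held with each mouse left out and both were lost in the 18-library model, where the adjusted p was 0.509 with rIL-13 and 0.376 with rIL-4.

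Tlr8 was low in microglia, at 0.430, 2.20 and 2.99 FPKM with PBS, 5.11, 1.96 and 5.88 FPKM with rIL-13 and 5.36, 5.36 and 8.58 FPKM with rIL-4. All rIL-4 libraries were above PBS. PBS mouse 1 had 63 counts and the other PBS mice 366 and 467. The log2 fold change of 1.79 (SE 0.66, adjusted p = 0.213) with rIL-4 did not pass, while the 18-library model gave an adjusted p of 0.0403. With rIL-13 it was 1.21 (SE 0.65, adjusted p = 0.779). The sum of the monocyte-derived macrophage markers was also higher here, at 122 to 241 CPM with rIL-4 against 36.2 to 88.6 with PBS. F10 had the highest mean with rIL-4, at 106 CPM against 10.6 with PBS, and Ccr2 had 41.1 against 16.5. The means of Plac8 and Ms4a4c were lower with rIL-4. F10 was also higher with rIL-4 within macrophages, at 646 CPM against 239. The part of these markers in the Tlr8 level was not tested.

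Tlr9, which binds DNA with unmethylated CpG, was the least abundant member in microglia, at 0.732, 0.403 and 1.52 FPKM with PBS. In cytokine microglia, it had 1.69, 0.00603 and 0.293 FPKM with rIL-13 and 2.22, 0 and 0.446 FPKM with rIL-4. The rIL-13 library of mouse 6 held 1 count and the rIL-4 library of mouse 9 held 0 counts, which allows up to 3 counts or 0.0165 FPKM by counting error alone. These are the libraries in which Tlr6 was lowest. No change was detectable in microglia at this spread, with log2 fold changes of 0.02 (SE 1.86, adjusted p = 0.999) and -0.41 (SE 1.87, adjusted p = 1.00). In macrophages, the levels were 1.33, 1.97 and 2.18 FPKM with PBS, 1.09, 1.91 and 1.11 FPKM with rIL-13 and 0.944, 0.420 and 1.10 FPKM with rIL-4. The rIL-4 libraries were below PBS, with a log2 fold change of -1.15 (SE 0.38, adjusted p = 0.0721). DESeq2's Wald test gave an adjusted p of 0.0206 there, and edgeR without the filter on low counts 0.0419. With rIL-13, the libraries overlapped PBS, at -0.41 (SE 0.38, adjusted p = 0.641).

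Tlr13 recognizes bacterial ribosomal RNA and has no human counterpart. In macrophages it had 127, 138 and 127 FPKM with PBS, 78.8, 80.9 and 88.2 FPKM with rIL-13 and 49.5, 45.4 and 54.2 FPKM with rIL-4. The 3 groups did not overlap, and PBS was highest and rIL-4 lowest. Tlr13 fell 2.63-fold with rIL-4, at -1.39 (SE 0.12, adjusted p = 0.000111) on the log2 scale, and kept its call with each mouse left out. With rIL-13 it fell 1.57-fold, at -0.65 (SE 0.12, adjusted p = 0.0154), a call lost without PBS mouse 2 or 3 and without rIL-13 mouse 5. The adjusted p was then up to 0.0732, the highest without PBS mouse 2.

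In microglia, Tlr13 had 32.5, 32.3 and 38.4 FPKM with PBS, 31.9, 15.0 and 21.0 FPKM with rIL-13 and 14.8, 7.60 and 14.7 FPKM with rIL-4. The PBS libraries were above all others, and the rIL-4 libraries below all others. With rIL-4, the log2 fold change was -1.46 (SE 0.32, adjusted p = 0.0525), and the 18-library model gave an adjusted p of 0.00224. With rIL-13 it was -0.60 (SE 0.31, adjusted p = 0.766).

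In macrophages, 1 member was DE when rIL-4 was set against rIL-13, against 0.25% of all genes. Tlr13 was 1.67-fold lower with rIL-4, a log2 fold change of -0.74 (SE 0.12, adjusted p = 0.0451). The call was lost in all 6 fits that left out a mouse, with adjusted p from 0.0776 to 0.166, the highest without rIL-4 mouse 10, and in the 18-library model, at 0.484. Tlr3 was also below rIL-13 in all rIL-4 macrophage libraries, but its log2 fold change of -0.78 (SE 0.24, adjusted p = 0.245) did not pass. In microglia, 0 members were DE by edgeR between the cytokines, against 0.0385% of all genes, and 0 by DESeq2. At an unadjusted p under 0.05, 1 of 10 members would have passed, beside 11.4% of all genes. It was Tlr13, with a log2 fold change of -0.86 (SE 0.32, adjusted p = 0.388). The unadjusted p was 0.0222.

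Whether the responses differed between the cell types was tested directly by the interaction term. None of the 10 members passed by edgeR for rIL-4, where 0.992% of all genes did, or for rIL-13, where 0.0242% did, and DESeq2 called 0 in both. At an unadjusted p under 0.05, 3 of 10 members would have passed for rIL-4, beside 12.4% of all genes, and 1 for rIL-13, beside 5.83%. Tlr2 was in both sets, with a difference in log2 fold change, microglia minus macrophages, of -1.005 (SE 0.38, adjusted p = 0.258) for rIL-4 and -1.01 (SE 0.38, adjusted p = 0.677) for rIL-13. The others were Tlr1, at -0.68 (SE 0.31, adjusted p = 0.387), and Tlr3, at 1.02 (SE 0.47, adjusted p = 0.381). The change of Tlr8 in microglia and macrophages differed by 0.89 (SE 0.66, adjusted p = 0.683) for rIL-4.

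**Figure D3:**
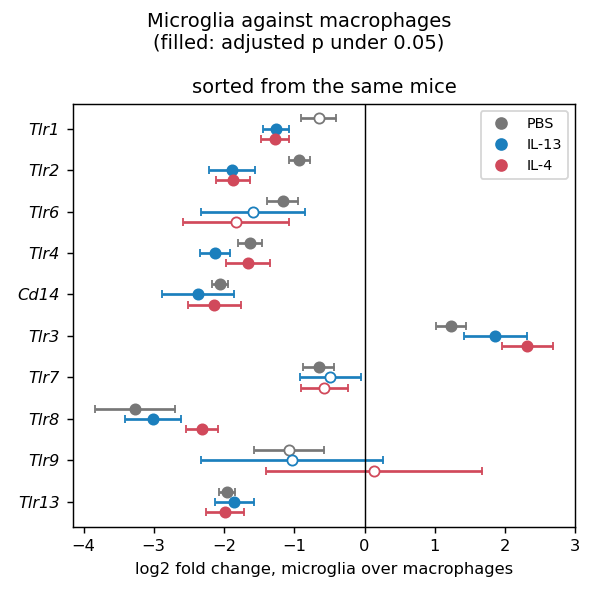
Log2 fold change between microglia and macrophages of the same mice with PBS, rIL-13 and rIL-4, with SE. Filled symbols have an adjusted p under 0.05 in edgeR's test. Tlr3 is higher in microglia with each treatment, from 1.23 to 2.32, and Tlr2, Tlr4, Tlr8, Tlr13 and Cd14 are lower with each.

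Between microglia and macrophages with PBS, 8 members were DE, against 40.9% of all genes. Tlr3 was higher in microglia (24.5% of all genes were), and 7 members were lower in microglia (16.3% of all genes were). With rIL-13 and rIL-4, 7 members were DE in each, against 26.7% and 23.4% of all genes. Tlr3 was again higher in microglia, where 17.2% and 13.4% of all genes were higher. Tlr1, Tlr2, Tlr4, Tlr8, Tlr13 and Cd14 were lower, where 9.46% and 9.97% of all genes were lower. Without rIL-13 mouse 7, the count with rIL-13 was 2, Tlr4 and Tlr8. Microglia libraries carried fibroblast and pericyte markers at 185 to 7017 CPM against at most 9.02 in macrophages, and their part in these differences was not tested.

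Tlr8 had the largest log2 difference of the members between the cells with PBS and with rIL-13. With rIL-4, Tlr8 and Tlr3 had nearly the same size, at -2.32 and 2.32, the largest of the members. Tlr8 was 9.62-fold lower in microglia with PBS, a log2 fold change of -3.27 (SE 0.56, adjusted p = 0.00186). With rIL-13 the value was -3.01 (SE 0.40, adjusted p = 0.00186) and with rIL-4 -2.32 (SE 0.23, adjusted p = 0.000458). Cd14 was 4.16-fold lower in PBS microglia, at -2.06 (SE 0.12, adjusted p = 6.86e-06), and remained lower with rIL-13, at -2.37 (SE 0.51, adjusted p = 0.0121), and with rIL-4, at -2.14 (SE 0.38, adjusted p = 0.00580). The Cd14 call with rIL-13 was lost without mouse 7, with an adjusted p of 0.0986.

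Tlr13 and Tlr4 were lower in microglia with each treatment. The log2 fold change of Tlr13 was -1.96 (SE 0.12, adjusted p = 9.3e-06) with PBS, -1.85 (SE 0.28, adjusted p = 0.00298) with rIL-13 and -1.98 (SE 0.27, adjusted p = 0.00178) with rIL-4. For Tlr4, the values were -1.63 (SE 0.17, adjusted p = 0.000133), -2.12 (SE 0.21, adjusted p = 0.000640) and -1.66 (SE 0.32, adjusted p = 0.00823). No library of microglia reached the macrophage libraries of its treatment for either gene. Without mouse 9, Tlr4 with rIL-4 had an adjusted p of 0.0754, and Tlr13 with rIL-13 one of 0.0666 without mouse 7.

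Tlr2 was 1.90-fold lower in microglia with PBS, at -0.93 (SE 0.15, adjusted p = 0.00112), and the values were -1.89 (SE 0.33, adjusted p = 0.00536) with rIL-13 and -1.87 (SE 0.24, adjusted p = 0.00144) with rIL-4. Tlr1 had -0.65 (SE 0.25, adjusted p = 0.0661) with PBS, -1.26 (SE 0.19, adjusted p = 0.00271) with rIL-13 and -1.28 (SE 0.20, adjusted p = 0.00354) with rIL-4. The PBS call of Tlr1 depended on the setting. Its adjusted p was 0.0378 with the mouse as a block, 0.0373 by DESeq2's Wald test and 0.0401 without the filter on low counts. Without PBS mouse 3 it was 0.0422, and without PBS mouse 2 it was 0.190. Without mouse 7, Tlr1 and Tlr2 with rIL-13 had adjusted p of 0.0551 and 0.0842.

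Tlr6 passed with PBS, at -1.16 (SE 0.22, adjusted p = 0.00275). The values were -1.59 (SE 0.74, adjusted p = 0.161) with rIL-13 and -1.83 (SE 0.75, adjusted p = 0.132) with rIL-4, although all microglia libraries were below all macrophage libraries. Tlr7 also passed with PBS, at -0.65 (SE 0.22, adjusted p = 0.0442), a call lost without mouse 1 or 3, with adjusted p of up to 0.112 without mouse 1. With the cytokines it was -0.49 (SE 0.43, adjusted p = 0.468) and -0.57 (SE 0.34, adjusted p = 0.293). In the 18-library model, the PBS adjusted p was 0.274 for Tlr6 and 0.271 for Tlr7. Tlr9 passed in none, at -1.07 (SE 0.50, adjusted p = 0.120) with PBS, -1.03 (SE 1.302, adjusted p = 0.623) with rIL-13 and 0.13 (SE 1.53, adjusted p = 0.968) with rIL-4. Whether any of these cell type differences depended on treatment is the interaction given above.

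Tlr3 was the member with the opposite direction. It was 2.35-fold higher in microglia with PBS, at 1.23 (SE 0.21, adjusted p = 0.00186), 3.64-fold with rIL-13, at 1.86 (SE 0.45, adjusted p = 0.0197), and 4.98-fold with rIL-4, at 2.32 (SE 0.36, adjusted p = 0.00341). Every microglia library was above the macrophage libraries of the same treatment. The rIL-13 call was lost without mouse 6 or 7, with adjusted p of up to 0.148 without mouse 7. Microglia libraries held at least 185 CPM of fibroblast and pericyte markers and at least 637 CPM of endothelial markers, and the part of such cells in the Tlr3 level was not tested.

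**Figure D4:**
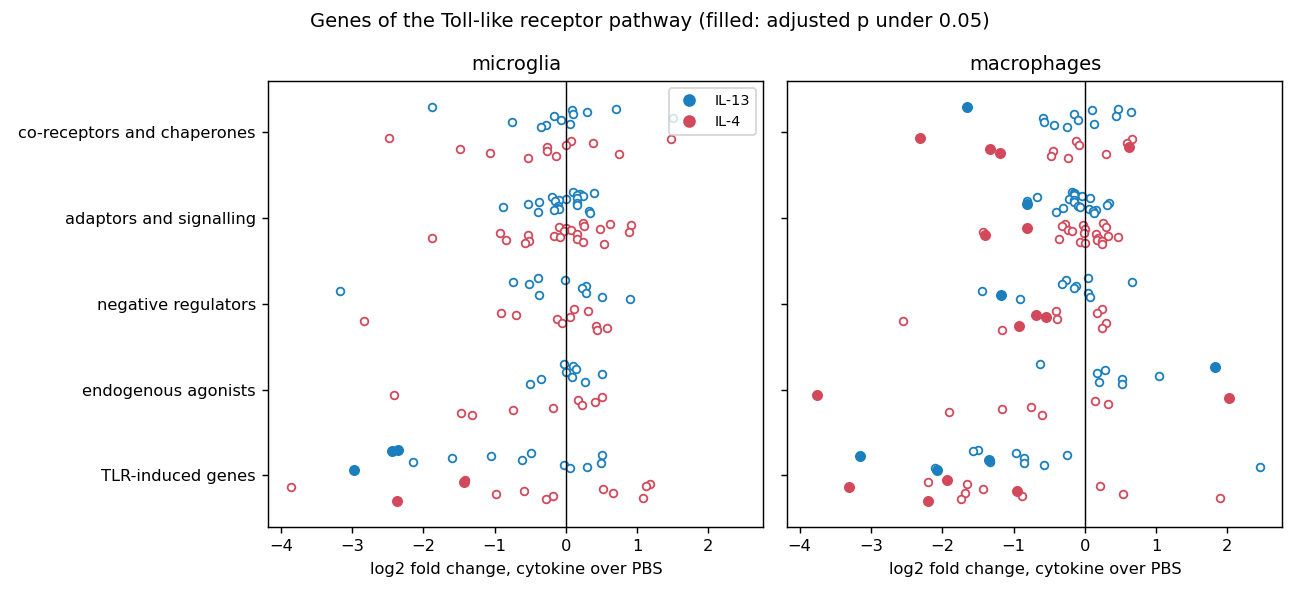
Log2 fold change with rIL-13 and rIL-4 against PBS of the listed pathway genes that were tested, by list, in microglia and macrophages. Each point is a gene, and filled points have an adjusted p under 0.05 in edgeR's test. The filled points among the TLR-induced genes are all on the left of 0, with Cxcl10 at -3.30 with rIL-4 in macrophages.

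The rest of the pathway was followed in 6 lists. Of 15 genes that Toll-like receptors induce, 13 were tested. In microglia, 3 were lower with rIL-13 and 2 with rIL-4, beside 0.0835% and 0.887% of all genes, and none was higher. The cytokine gene Tnf had a log2 fold change of -2.98 (SE 0.41, adjusted p = 0.0156) with rIL-13 and -2.37 (SE 0.40, adjusted p = 0.0192) with rIL-4. The chemokine gene Ccl4 had -2.44 (SE 0.28, adjusted p = 0.00778) with rIL-13 and -1.43 (SE 0.27, adjusted p = 0.0298) with rIL-4. Ccl3, which encodes a related chemokine, had -2.36 (SE 0.38, adjusted p = 0.0408) with rIL-13.

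In macrophages, 4 of the 13 were lower with rIL-4 and 3 with rIL-13, beside 7.2% and 1.66% of all genes, and again none was higher. Cxcl10, an interferon-inducible chemokine gene, had -3.30 (SE 0.47, adjusted p = 0.00154) with rIL-4 and -3.15 (SE 0.47, adjusted p = 0.00551) with rIL-13. Tnf had -2.20 (SE 0.37, adjusted p = 0.00356) with rIL-4 and -2.07 (SE 0.37, adjusted p = 0.0122) with rIL-13. Il1a, which encodes interleukin-1 alpha, had -0.95 (SE 0.22, adjusted p = 0.0195) and -1.34 (SE 0.23, adjusted p = 0.00937), and Ccl3 had -1.94 (SE 0.43, adjusted p = 0.0147) with rIL-4. The median log2 fold change of the tested list was -1.66 with rIL-4 and -1.33 with rIL-13 in macrophages, and -0.27 and -0.62 in microglia. The medians over all genes are given above.

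Of 12 co-receptor and chaperone genes, none passed in microglia with either cytokine, beside 2.22% of all genes with rIL-4 and 0.366% with rIL-13. At such shares, a short list without a call is near the share over all genes. In macrophages, 4 were DE with rIL-4, beside 14% of all genes. Of these, 3 were lower and 1 higher, beside 7.2% and 6.77% of all genes. The lower genes included Cd180, a Toll-like receptor homologue, at -2.31 (SE 0.41, adjusted p = 0.00472), and Ly86 (MD-1), its partner, at -1.19 (SE 0.23, adjusted p = 0.00708). Ly86 had a mean of 744 CPM in PBS microglia against 220 in PBS macrophages. Microglia markers in macrophages were also lower with rIL-4, at 422 to 742 CPM against 2303 to 3272 with PBS. Their part in the Ly86 value was not tested. Lbp, the lipopolysaccharide-binding protein gene, had -1.32 (SE 0.29, adjusted p = 0.0145). Hsp90b1 (gp96), which folds Toll-like receptors, was higher, at 0.62 (SE 0.14, adjusted p = 0.0130). With rIL-13, 1 of the 12 passed, Cd180, at -1.65 (SE 0.40, adjusted p = 0.0484), beside 4.19% of all genes. Hsp90b1 was the 1 listed pathway gene with a called difference between the cell types' rIL-4 responses. The difference, microglia minus macrophages, was -0.92 (SE 0.16, adjusted p = 0.0146). Over the 6 lists, this count was near the share of all genes, 0.992%. Ly96 (MD-2), the TLR4 partner, had 0.30 (SE 0.18, adjusted p = 0.304) with rIL-4 in macrophages, and Unc93b1, which carries nucleic acid receptors to endosomes, -0.24 (SE 0.16, adjusted p = 0.384).

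Of 22 adaptor and signalling genes, none was DE in microglia, where 2.22% of all genes were with rIL-4 and 0.366% with rIL-13. The list was thus near the share over all genes there. In macrophages, 2 were lower with rIL-4 and 1 with rIL-13, where 7.2% and 1.66% of all genes were, so the rIL-4 count was near the share over all genes. Pik3ap1, which encodes BCAP, an adaptor that links Toll-like receptors to phosphoinositide 3-kinase, had -1.40 (SE 0.12, adjusted p = 0.000103) with rIL-4 and -0.81 (SE 0.12, adjusted p = 0.00509) with rIL-13. Irak2, a kinase of the MyD88 complex, had -0.82 (SE 0.18, adjusted p = 0.0126) with rIL-4. Myd88 itself had 0.16 (SE 0.26, adjusted p = 0.751) with rIL-4 in macrophages and 0.16 (SE 0.23, adjusted p = 0.841) in microglia. Ticam1 had 0.17 (SE 0.14, adjusted p = 0.460) and -0.84 (SE 0.48, adjusted p = 0.446).

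Of 11 negative regulators, none was DE in microglia, which is near the share over all genes, 2.22% with rIL-4 and 0.366% with rIL-13. In macrophages, 3 were lower with rIL-4 and 1 with rIL-13, where 7.2% and 1.66% of all genes were. Inpp5d (SHIP-1), a lipid phosphatase gene, had -0.69 (SE 0.14, adjusted p = 0.0110), Tnfaip3 (A20), a ubiquitin-editing enzyme gene, -0.92 (SE 0.21, adjusted p = 0.0158) and Irak3 (IRAK-M), -0.55 (SE 0.13, adjusted p = 0.0219). With rIL-13, Tnfaip3 had -1.18 (SE 0.21, adjusted p = 0.0121). Among 9 endogenous agonists, none passed in microglia, again near the share over all genes, 2.22% with rIL-4 and 0.366% with rIL-13. In macrophages, 8 of them were tested, and 2 passed with rIL-4 and 1 with rIL-13, where 14% and 4.19% of all genes did. Fn1, fibronectin, was higher in macrophages with rIL-4, at 2.03 (SE 0.36, adjusted p = 0.00450), and with rIL-13, at 1.83 (SE 0.35, adjusted p = 0.0194). Bgn, biglycan, was lower with rIL-4, at -3.76 (SE 0.89, adjusted p = 0.0192), but at trace levels, with means of 0.496 CPM with PBS and 0.0325 CPM with rIL-4 in macrophages against 402 CPM in PBS microglia. Fibroblast and pericyte markers in macrophages were also lower with rIL-4, at 0.282 to 1.12 CPM against 3.31 to 6.19 with PBS, and their part in the Bgn value was not tested. Of the other mouse Toll-like receptor genes, Tlr5 and Tlr12 were tested in both cell types and did not pass against PBS, and Tlr11 was filtered out.

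Between the cell types with PBS, 11 of the 22 adaptor and signalling genes were lower in microglia and none was higher. The lowest p were those of Irak2 at -1.85 (SE 0.15, adjusted p = 3.96e-05) and Ikbke, a kinase gene of the interferon arm, at -1.76 (SE 0.18, adjusted p = 0.000127). Of the TLR-induced genes, 7 were lower in microglia and 2 higher. Il1b, the interleukin-1 beta gene, had -4.51 (SE 0.26, adjusted p = 7.86e-06). Of the co-receptors and chaperones, 7 were lower and 2 higher. Cd36, a scavenger receptor that assists TLR2, had -2.86 (SE 0.23, adjusted p = 3.07e-05), and Ly96 -1.32 (SE 0.22, adjusted p = 0.00139). These lists were read against 16.3% of all genes lower in microglia and 24.5% higher.

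As a description, the 3 genes most like each member were taken by Pearson correlation over the 18 libraries, in log2 CPM with each cell type's mean subtracted, among 16535 genes. The libraries share their treatment, and cells from 1 mouse contribute to a pair of them. For Tlr2 these were Kif21b (r = 0.944), Cd37 (0.932) and Dusp6 (0.929). Cd37 (0.939) was also the gene most like Tlr13, followed by Abcc3 (0.937) and Asph (0.932). Abcc3 (0.93) led for Tlr7, followed by Cd180 (0.925) and Apoe (0.922). Cd14 was closest to Pilra (0.963), Dusp1 (0.938) and Smox (0.913). Tlr8 was closest to Tsnax (0.947) and Tlr4 to Ap1b1 (0.933). The leading genes of the other members were Fbxo7 for Tlr1 (0.833), Mid1ip1 for Tlr3 (0.897), Tmem35a for Tlr6 (0.965) and Plcb2 for Tlr9 (0.923).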

How the data were processed

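RNA-seq libraries were made by SMARTseq2, a low-input method that copies whole transcripts and marks neither molecules nor strand. The authors mapped paired 76-base reads to GRCm38 with STAR 2.5.3a and deposited expected counts from RSEM 1.3.0, which divides ambiguous reads between genes. The annotation release was not given in the sources used here. Intervals and limits cover counting error only.

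Counts were rounded and tested with edgeR 4.0.16 (quasi-likelihood test, TMM, filterByExpr) in R 4.3.3, with Benjamini-Hochberg adjustment over all genes kept. Cytokine comparisons used the 9 libraries of a cell type, cell type comparisons the 6 of a treatment and interactions all 18. The threshold was 0.05, and SE was derived from the F statistic. Alternatives were DESeq2 1.42.0, its size factors, no filter, all 18 libraries, each mouse left out and, where cell types were compared, the mouse as a block. FPKM used GENCODE exon lengths and TMM-scaled totals. The tests were checked on simulated counts in which 200 genes were given large changes and every gene the same spread. That check did not cover a spread as wide as that of Tlr6 and Tlr9 in microglia. The members and lists were chosen with earlier results of these data known. All members were named, and of each list at most 5 called genes with the lowest p. Pathway genes named without a call were chosen after their values were seen. Microglia and macrophages of a mouse pair by animal, and the correlation of their deviations was between 0.0177 and 0.0935 over 9 mice. Nothing says that sorts were repeated within a mouse, so p-values measure the spread between mice.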

Additional observations from a re-analysis of the deposited data

How the results depend on the processing

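Of 104 alternative counts of called members, 79 stayed within 1.5 times the reported count. These include every alternative of rIL-4 against rIL-13 in microglia and of both interactions, where the count was 0 throughout. Of 1040 alternative log2 fold changes of single members, none changed sign while called and 976 kept their side of the threshold. The 976 include values that were uncalled in the main test and stayed uncalled. DESeq2's Wald test called 4 members with rIL-4 and 2 with rIL-13 in microglia. With all 18 libraries in a single model, 4 were called with rIL-4 in microglia, 0 with rIL-13 in macrophages and 0 between rIL-4 and rIL-13 in macrophages. With each mouse left out in turn, the count was 1 in all 6 fits for rIL-4 in microglia, 0 to 1 for rIL-13 in microglia, 2 to 3 for rIL-13 in macrophages, 0 in all 6 fits between the cytokines in macrophages and 2 to 7 between the cell types with rIL-13. The fits that left out a mouse had fewer libraries, and the cause of the other changes was not tested.

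With the replicate block by mouse, the adjusted p of Tlr1 between the cell types with PBS was 0.0378, at a log2 fold change of -0.71, and the block changed no other call of a member. Unpaired alternatives also called Tlr1 there, with an adjusted p of 0.0373 by DESeq2's Wald test and 0.0401 by edgeR without the filter. Of 60 group levels, 45 moved by less than their SD without TMM scaling. With 3 mice per group and counts as low as 0 for Tlr9, changes of Tlr6 and Tlr9 in microglia were not detectable.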
